A study of Mus musculus with 6 samples.

Results

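The clustered histone genes are the genes whose symbol in the deposited table starts with Hist1h to Hist4h, and 68 of its 22609 genes met that rule. The 68 genes include Hist3h2bb-ps and Hist2h3c2-ps, whose symbols mark pseudogenes. By symbol, 6 of the 68 genes are of histone type H1, 18 H2a, 19 H2b, 12 H3 and 13 H4. They lie in 4 clusters, with 54 genes in Hist1 on chromosome 13, 10 in Hist2 on chromosome 3, 3 in Hist3 on chromosome 11 and 1 in Hist4 on chromosome 6. RNA was sequenced from early T cell progenitors (ETPs), the most immature thymocytes, sorted from fetal thymus of C57BL/6 mice as lineage-negative cells carrying CD44 and c-Kit and lacking CD25, CD4 and CD8. The double-knockout (dKO) group had 3 libraries of genotype E2Afl/flHEBfl/flIL7RCre, in which a Cre recombinase driven by the Il7r locus acts on floxed alleles of E2A (Tcf3) and HEB (Tcf12). The Control group had 3 libraries labelled wild type, with no Cre named. The dKO cells were sorted for YFP as well and the Control cells were not, so gate and genotype cannot be told apart. Neither fetal age nor pooling of animals was stated in the labels.

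Histones package DNA. An octamer of H2A, H2B, H3 and H4 forms the nucleosome core, and H1 binds the linker DNA between nucleosomes. Most clustered genes are replication-dependent: they are transcribed mainly in S phase, when new DNA must be packaged. Many copies encode the same or nearly the same protein. The mRNAs of these genes usually end in a stem loop bound by SLBP rather than in a poly(A) tail. The low-input cDNA kit named in the labels primes on poly(A) tails, and the share of each histone mRNA that it captured was not measured. E2A and HEB are transcription factors of lymphocyte development that bind the E-box.

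The stem loop is shown because an mRNA that ends there has no poly(A) tail for the kit to prime on. In the GENCODE M21 transcripts (GRCm38), stretches of 6 bases, TTTN and the reverse complement of the 6 bases were collected, and the forms found in at least 2 members shared the letters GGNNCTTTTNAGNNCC. Searched on the transcript strand, these letters were in 43 of the 67 members with a transcript there, against 89 of all 55450 genes (0.16%), of which 44 have a Hist symbol. The 30-base windows below, 5′ to 3′, hold the stem loop of 16 bases in capitals.
Hist1h2ag: caacaaaGGCTCTTTTCAGAGCCacctaac
Hist1h2ab: aaacaaaGGCTCTTTTCAGAGCCacccaca
Hist1h3d: ccccaaaGGCTCTTTTCAGAGCCacccccg
Hist1h3c: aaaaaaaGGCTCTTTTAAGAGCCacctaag
Hist1h4d: aaccaaaGGCCCTTTTCAGGGCCactacct
The form in Hist1h2ag was the commonest, in 25 members, and that in Hist1h4d occurred in 7. The form in Hist1h3c occurred in 6.

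As a check of the labels, Tcf3 had means of 364 in dKO and 8931 in Control, 24.6-fold lower, and Tcf12 562 and 3845, 6.84-fold lower, in the authors' deposited table. Means are in counts normalised by the authors, and the 2 groups' means sum to 23381590 in dKO and 22090871 in Control. At the authors' adjusted p under 0.05, 15.1% of all 16241 tested genes were called higher and 13.8% lower. All 13 ETP marker genes were detected in both groups, 4 called higher, 8 lower and 1 neither. The median log2 change of the 13 was -1.70. Their summed level was 78922 in dKO and 69970 in Control, but 55961 in dKO and 62920 in Control without Gata3, a T lineage factor (22961 in dKO, 7051 in Control). Of the lists for other cells, 6 of 7 innate lymphoid markers rose (summed level 35623 in dKO, 7910 in Control), 6 of 9 markers of later thymocytes fell (9798 in dKO, 17136 in Control), and 4 of 8 myeloid markers fell (2208 in dKO, 9057 in Control). Il2ra, which encodes CD25, was not called, with means of 8536 in dKO and 8417 in Control in the authors' deposited table, although the cells were sorted as lacking CD25. Without it the later thymocyte markers summed to 1262 in dKO and 8719 in Control. The 4 tested erythroid markers did not pass (136 in dKO, 202 in Control), nor did the 5 of thymic stroma (437 and 281), and 1 of 4 B lineage markers fell (1077 and 1251). Pax5, Pdgfra and the globin genes Hbb-b1, Hbb-b2, Hba-a1 and Hba-a2 were listed at 0 in both groups. The part of these cells in the histone results was not tested, and in bulk RNA fewer cells of a type and less RNA per cell cannot be told apart.

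H2a genes of the Hist1 cluster were called higher in dKO, Hist1h2bc and Hist1h3d were called lower, and the other clustered histone genes did not pass. Of the members, 63 were tested in the authors' deposited table and 5 were listed at 0 in both groups (Hist1h2aa, Hist1h2ap, Hist1h2bq, Hist1h2br and Hist2h2aa2). At the authors' adjusted p under 0.05, 9 members rose in dKO, all of them H2a genes, 2 fell and 52 did not pass. Over all 16241 tested genes 29.0% were called, 15.1% higher and 13.8% lower, and among the members 17.5% were called, 14.3% higher and 3.17% lower. The members' share of higher calls was thus near that of all genes, and their share of lower calls was below it. The median log2 change was 0.19 over the tested members (0.14 without Hist3h2bb-ps and Hist1h4m, which were at or under a floor of 3 reads in both groups) and -0.02 over all tested genes in the authors' deposited table.

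**Figure D1:**
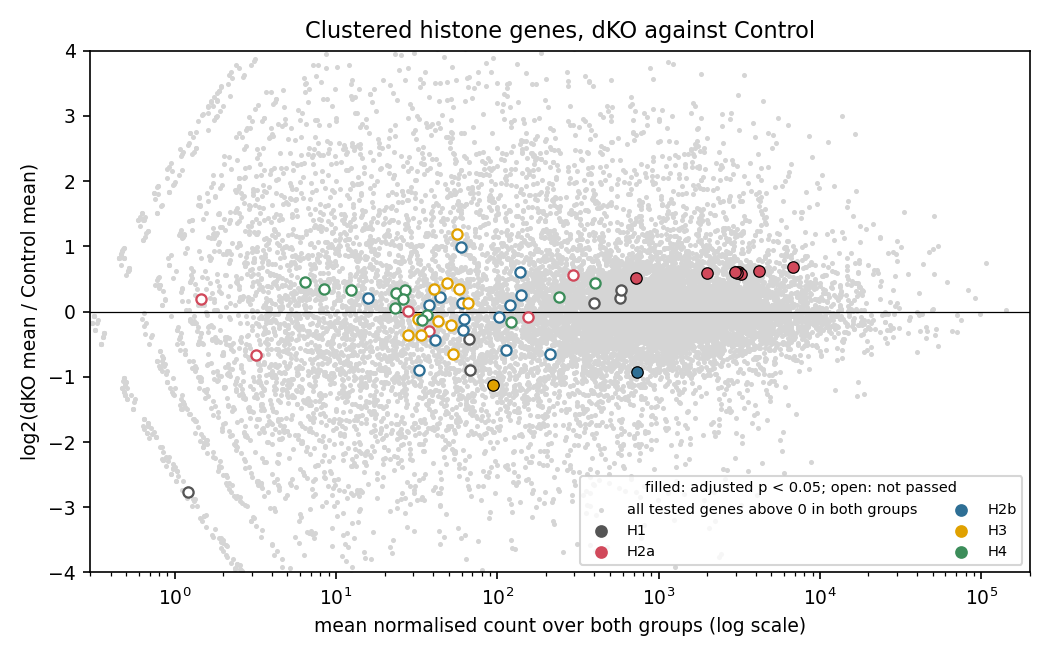
Change of each tested member, log2 of the dKO mean over the Control mean, against its mean normalised count over both groups on a log scale, with all tested genes above 0 in both groups in grey (genes beyond 4 on the log2 scale are off the axis, and Hist3h2bb-ps and Hist1h4m, at very few reads in both groups, are not drawn as members). The 9 filled H2a points sit together between 0.51 and 0.68 at the abundant end, and the filled points below 0 are Hist1h2bc and Hist1h3d.

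H2a pairs with H2b in the nucleosome core, and 8 of its Hist1 genes had the highest mean counts of the members, followed by Hist1h2bc and Hist1h2af. The table gives 1 mean per group, so no library values or error can be printed for these 9 genes. Hist1h2ag had a mean normalised count of 8429 in dKO, against 5246 in Control, 1.61-fold higher in the authors' deposited table (adjusted p = 0.00175). Hist1h2ac followed with 5058 in dKO and 3276 in Control, 1.54-fold higher in the authors' deposited table (adjusted p = 0.00538). Both rises were called by the authors' test over the spread between the libraries, and neither reached 2-fold.

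A further 5 genes lay close together. In the authors' deposited table Hist1h2ae had 3867 in dKO and 2599 in Control, Hist1h2ad 3837 and 2507, and Hist1h2ah 3704 and 2448. Hist1h2ab had 3619 in dKO and 2377 in Control, and Hist1h2ai 3617 and 2373, in the authors' deposited table. The last 2 genes thus had nearly the same mean in each group. Hist1h2an (2407 in dKO, 1600 in Control) and Hist1h2af (850.5 in dKO, 597 in Control) had the lowest mean counts of those that rose in the authors' deposited table. Across the 9 genes the log2 changes spanned only 0.51 to 0.68, with a median of 0.61, and the authors' adjusted p ran between 0.00175 and 0.0196. Of all tested genes with a mean of at least 500, 22.9% were called higher, against 9 of the 12 members at that level. The cut at 500 was not planned in advance. The 9 are nearly the same in sequence and are not 9 separate measurements, so the 2 shares cannot be compared as counts of separate genes.

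Per kb of the longest GENCODE transcript, the level of the 9 genes ran between 2038 and 17379 normalised counts in dKO, and between 1320 and 10816 in Control. The next member on that scale in dKO was another Hist1 H2a gene, Hist1h2ak, with 891 per kb in dKO and 601 in Control. In the authors' deposited table Hist1h2ak had a mean of 350.3 in dKO and 236 in Control and missed the threshold (adjusted p = 0.0646), although its log2 change of 0.57 lay inside the range of the 9 that rose.

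The stem loop letters were in the annotated transcripts of 5 of the 9 genes, and the transcripts of the other 4 are annotated to 405 bases or fewer, with little or nothing beyond the coding sequence.

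These 9 genes cannot be taken as 9 separate measurements. Their coding sequences are nearly the same: the 28 pairs among the 8 genes of equal coding length (393 bases) were 97.2% to 99.5% identical. The longest stretch present in all 9 coding sequences has 141 bases and is shown since a read from within it cannot be assigned to a gene by sequence.
common H2a stretch: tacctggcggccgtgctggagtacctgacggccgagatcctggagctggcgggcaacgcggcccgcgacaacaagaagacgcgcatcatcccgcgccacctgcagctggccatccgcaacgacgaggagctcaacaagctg
Apart from these 9 genes, 2 members held it, Hist1h2ao and Hist1h2ap, which had means of 2.46 in dKO and 3.90 in Control for Hist1h2ao and 0 in both groups for Hist1h2ap in the authors' deposited table. No source used here says how reads that match several genes were counted, so separate transcripts and shared reads cannot be told apart for these genes.

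Sequence sharing extended to most members. Of all 50-base stretches in a member's transcripts, the share found in the transcripts of another gene had a median of 49.3% over 67 members. By type this median was 73.0% for H2a, 60.4% for H3, 44.1% for H2b, 39.5% for H4 and 1.1% for H1. For the 9 genes that rose it ran between 14.1% (Hist1h2ac, whose annotated transcript is long) and 90.7% (Hist1h2ah). Of the 5 members listed at 0, Hist1h2ap, Hist1h2bq, Hist1h2br and Hist2h2aa2 shared 88.7% or more of their stretches, and Hist1h2aa shared 2.3%. In 4 members no stretch was shared. The highest mean counts among these were those of Hist1h1b, a linker histone gene, with means of 413 in dKO and 377 in Control in the authors' deposited table (adjusted p = 0.731).

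**Figure D2:**
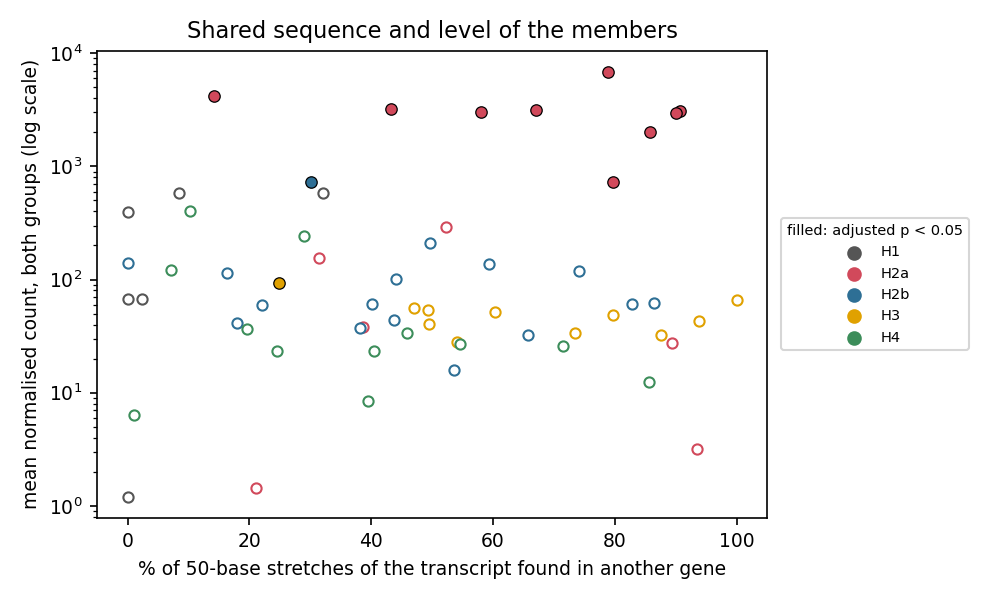
Mean normalised count of each tested member over both groups (log scale) against the share of its 50-base stretches found in another gene, coloured by histone type, filled where called (Hist3h2bb-ps and Hist1h4m, and Hist2h3c2-ps, which had no matched transcript, are not drawn). The called H2a genes and Hist1h2bc are the highest points, the H2a genes at shares between 14.1% and 90.7%, and H1 genes lie at 32.0% or less.

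The summed normalised count of the H2a genes was 35954 in dKO and 23494 in Control, a ratio of 1.53. A read counted at several copies would enter this sum more than once. H2a took 87.5% of all counts of the members in dKO and 81.5% in Control. The sum of all other members was 5143 in dKO and 5329 in Control, a ratio of 0.965. All members together made up 0.176% of all normalised counts in dKO and 0.131% in Control.

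The other 6 tested H2a genes did not pass, among them all from the smaller clusters. Hist3h2a had means of 151 in dKO and 159 in Control, and Hist2h2aa1 27.8 and 27.6, in the authors' deposited table. Whole reads of each library could be recovered from low means, and Hist2h2ac had normalised counts of 27.7, 47.4 and 27.0 in the dKO libraries, against 26.4, 42.0 and 57.1 in the Control libraries. The groups overlapped. Libraries are given here in the order of their size factors, 1.16, 1.08 and 1.04 in dKO and 1.02, 0.95 and 0.82 in Control, since they carry no replicate number.

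No H2b gene was called higher: of 17 tested, 1 fell and 16 did not pass. Over all tested genes, 15.1% were called higher and 13.8% lower. Hist1h2bc fell to a mean of 506 in dKO, against 959 in Control, 1.89-fold lower in the authors' deposited table (adjusted p = 1.84e-06), the smallest adjusted p of the members. Its annotated transcript of 1156 bases held no stem loop match. The summed H2b level was 1722 in dKO and 2221 in Control, a log2 ratio of -0.37, but Hist1h2bc alone held 43.2% of it in Control, and without it the log2 ratio was -0.06. In the authors' deposited table Hist1h2bg had means of 164 in dKO and 258 in Control and missed the threshold (adjusted p = 0.0765).

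H2b members of low level could be read by library. Hist1h2bf had 19.0, 28.8 and 20.2 normalised counts in the dKO libraries, against 36.1, 47.3 and 43.7 in the Control libraries. Hist1h2bh had 38.1, 31.6 and 35.6 in dKO and 44.9, 42.0 and 55.9 in Control. In both genes every dKO library lay below every Control library. Such a lack of overlap, in either direction, was found in 26.2% of the 1701 genes with both means between 10 and 100. Neither passed in the authors' deposited table (adjusted p = 0.421 for Hist1h2bf and 0.753 for Hist1h2bh). Hist1h2bj pointed the other way, with 171, 178 and 148 in dKO against 78.1, 124 and 125 in Control, also with no overlap and not called (adjusted p = 0.186 in the authors' deposited table). Hist1h2be was lower without overlap, with 114, 86.5 and 71.3 in dKO against 116, 156 and 137 in Control. It was not called (adjusted p = 0.299 in the authors' deposited table). For means above 100 no share of such genes was computed.

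Many H2a and H2b genes face each other across a shared upstream region, and partners did not always change in the same direction. GENCODE M21 holds 13 such H2a and H2b pairs among the members with fewer than 500 bases between their starts, and both genes were tested in 10. In 7 of the 10 the H2a gene rose, while 1 H2b partner fell and 6 did not pass, and 5 of these 7 partners had a log2 change below 0. Hist1h2ac, which rose, faces Hist1h2bc, which fell, with 251 bases between them. The log2 change of Hist1h2ad was 0.61 and that of its partner Hist1h2bf was -0.90. Hist1h2ag and Hist1h2bj, 270 bases apart, had log2 changes of 0.68 and 0.60. The difference between partners was not tested.

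**Figure D3:**
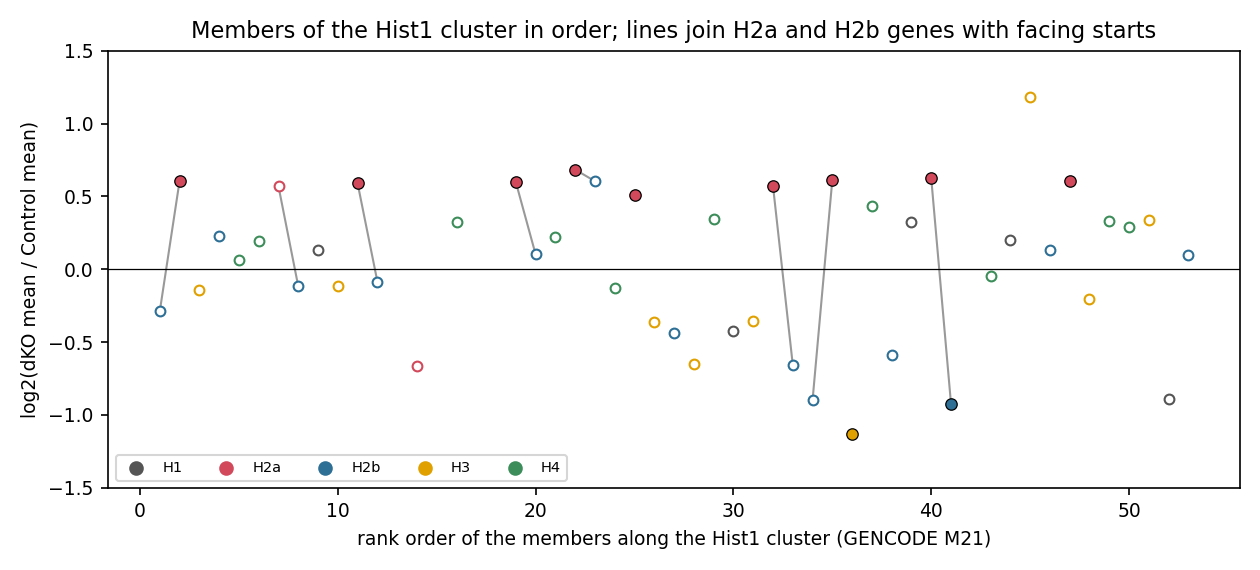
Log2 of the dKO mean over the Control mean for tested members of the Hist1 cluster in their order along the chromosome, with lines joining H2a and H2b genes whose starts face each other (Hist1h1t, a member of few reads, is off the axis, and Hist1h4m is not drawn). Called H2a genes lie between 0.51 and 0.68 along the whole cluster, and each H2b partner joined to 1 of them lies lower than that gene.

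The upstream sequences of Hist1h2ag, Hist1h3d and Hist1h4d are shown to compare an H2a gene that rose, an H3 gene that fell and an H4 gene that did not pass. Each is the 150 bases before the RefSeq start (GRCm38.p6), with CCAAT on either strand and TATAAA in capitals, at chr13:22042950-22043099 (minus strand), chr13:23575613-23575762 (plus strand) and chr13:23581418-23581567 (plus strand).
Hist1h2ag: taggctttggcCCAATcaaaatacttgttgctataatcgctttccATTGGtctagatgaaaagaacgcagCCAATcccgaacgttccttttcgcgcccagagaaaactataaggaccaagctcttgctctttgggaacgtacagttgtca
Hist1h3d: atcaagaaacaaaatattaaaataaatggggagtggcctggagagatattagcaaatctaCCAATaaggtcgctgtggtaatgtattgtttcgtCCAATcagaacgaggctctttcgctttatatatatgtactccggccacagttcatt
Hist1h4d: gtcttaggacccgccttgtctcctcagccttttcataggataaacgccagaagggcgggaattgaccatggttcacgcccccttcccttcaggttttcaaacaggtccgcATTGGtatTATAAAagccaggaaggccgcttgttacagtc
RefSeq promoters, 250 bases before to 50 after the start, were matched for 61 members. Hist1h2bc, which fell, was not among them. CCAAT, on either strand, was present in 52 of them (85.2%), against 37.9% of 27025 genes. All 17 H2a, 16 H2b, 10 H3 and 6 H1 promoters held it, against 3 of the 12 H4 promoters. The windows of H2a and H2b genes that face each other overlap, so 1 site can be counted for both genes. TATAAA, on either strand, was in 57.4% of the members and in 14.2% of all genes. The E-box forms CAGCTG and CACCTG, on either strand, were in 11.5% and 13.1% of the members, against 16.1% and 20.0% of all genes. Of the 9 promoters of H2a genes that rose, 1 held CAGCTG and 0 held CACCTG. The wider form CANNTG, which takes in both, was in 68.9% of the members and 72.1% of all genes. These letters are a description of the windows and show no binding.

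H3 and H4 form the central tetramer of the nucleosome. Of the tested genes, 1 of 12 for H3 and 0 of 13 for H4 were called, against 29.0% of all tested genes. Hist1h3d fell to a mean of 58.9 in dKO, against 129 in Control, 2.19-fold lower in the authors' deposited table (adjusted p = 0.0314). Its dKO libraries held 60.6, 65.1 and 51.1 normalised counts. For Control 2 sets of whole reads give the deposited mean, 110.3, 131 and 146 or 355, 28.4 and 3.64. The groups do not overlap with the first set and overlap with the second. The second set is far more uneven than uniquely recovered Control values of similar level, such as those of Hist1h2be (116, 156 and 137).

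Other H3 genes went in both directions without passing. Hist1h3c had 84.8, 68.8 and 80.9 in the dKO libraries, against 28.3, 33.6 and 41.3 in Control, with every dKO library above every Control library. Its mean was 2.27-fold higher in the authors' deposited table, and it was not called (adjusted p = 0.0847). Hist2h3b had 50.2, 70.7 and 48.2 in dKO and 36.1, 43.1 and 44.9 in Control, again with no overlap and with an adjusted p of 0.687 in the authors' deposited table. Hist1h3a, by contrast, had 47.6, 67.9 and 21.2 in dKO and 19.5, 39.9 and 48.6 in Control, so its libraries overlapped widely. The summed H3 level was 587 in dKO and 622 in Control.

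Of the 13 tested H4 genes 0 were called by the authors' test, against 29.0% of all tested genes. Only 1 of them, Hist1h4d, had an unadjusted p under 0.05. Hist1h4d, with the highest mean counts of the type, had means of 464 in dKO and 343 in Control in the authors' deposited table (adjusted p = 0.103, unadjusted p = 0.0349). The summed H4 level was 1045 in dKO and 883 in Control, a log2 ratio of 0.24. Of the 12 genes above the floor of 3 reads in either group, which leaves out Hist1h4m, 9 had a log2 change above 0. Over all tested genes 7923 of 16241 did. The Control library of size factor 1.02 was the lowest of its group in all 7 recovered H4 members, so these directions are not separate observations. The other H4 genes had lower mean counts, such as Hist1h4b with 34.6, 30.7 and 24.1 in dKO and 14.6, 27.3 and 29.1 in Control, where the groups overlapped.

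**Figure D4:**
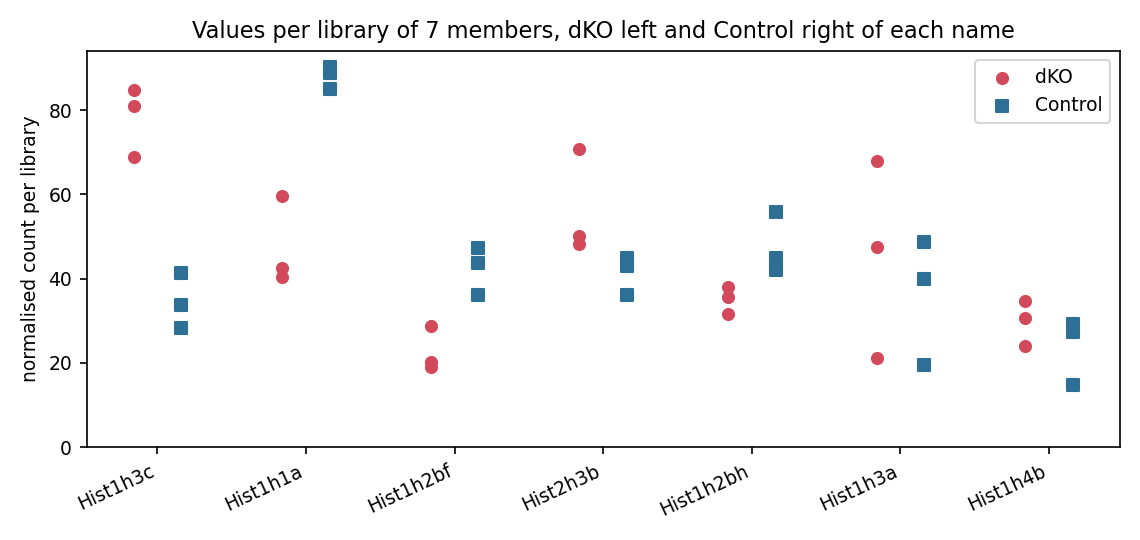
Normalised count in each library for 7 members whose whole reads were recovered, dKO circles left and Control squares right of each name. Hist1h3c and Hist2h3b are higher in all dKO libraries, Hist1h1a, Hist1h2bf and Hist1h2bh are lower in all dKO libraries, and Hist1h3a and Hist1h4b overlap.

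The linker histone genes did not pass either, with 0 of 6 tested called by the authors' test and 0 at an unadjusted p under 0.05. Over all tested genes, 29.0% were called. Hist1h1e had means of 651 in dKO and 519.9 in Control (adjusted p = 0.185) and Hist1h1c 620.2 and 539 (adjusted p = 0.502) in the authors' deposited table. Hist1h1a had 42.4, 59.5 and 40.5 in the dKO libraries, against 88.8, 90.3 and 85.0 in the Control libraries, with no overlap and an adjusted p of 0.180 in the authors' deposited table. Hist1h1t, the testis linker histone gene, was near the limit of detection: its reads all lay in 1 library of each group, 1 read in dKO and 6 in Control.

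Across the 31 members with both means between 10 and 100, which could all be recovered, the libraries of the groups did not overlap in 5 (16.1%), 2 with dKO above and 3 below, against 26.2% of all 1701 genes of that range. The members' sums differed more within groups than between them. They came to 1347, 1446 and 1113 normalised counts in the dKO libraries and 1039.6, 1363 and 1535 in the Control libraries, or 1302 ± 171 in dKO and 1313 ± 252 in Control (SD, n = 3 each). The Control library of size factor 1.02 was the lowest of its group in 26 of the 31 members, against 625 of the 1701 genes, and in all 7 H4 members. The dKO library of size factor 1.04 was the lowest in 19 of 31, against 613 of the 1701 genes. The sums of these 1701 genes lay between 65596 and 65860 in dKO and between 66916 and 71575 in Control.

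By type, the H4 members held 195, 208 and 165 in the dKO libraries, against 115, 191 and 220 in Control. The H3 members held 523, 618 and 443 in dKO and 378, 518 and 583 in Control. Both types overlapped between the groups. With 1 library left out, the median log2 change of the 31 members was lowest, -0.22, without the Control library of size factor 1.02. It was highest, 0.13, without the dKO library of size factor 1.04. Leaving out each of the other libraries gave -0.02, -0.07, 0.01 and 0.07. Whether the libraries differed in the same way for the abundant H2a genes could not be read from the group means.

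**Figure D5:**
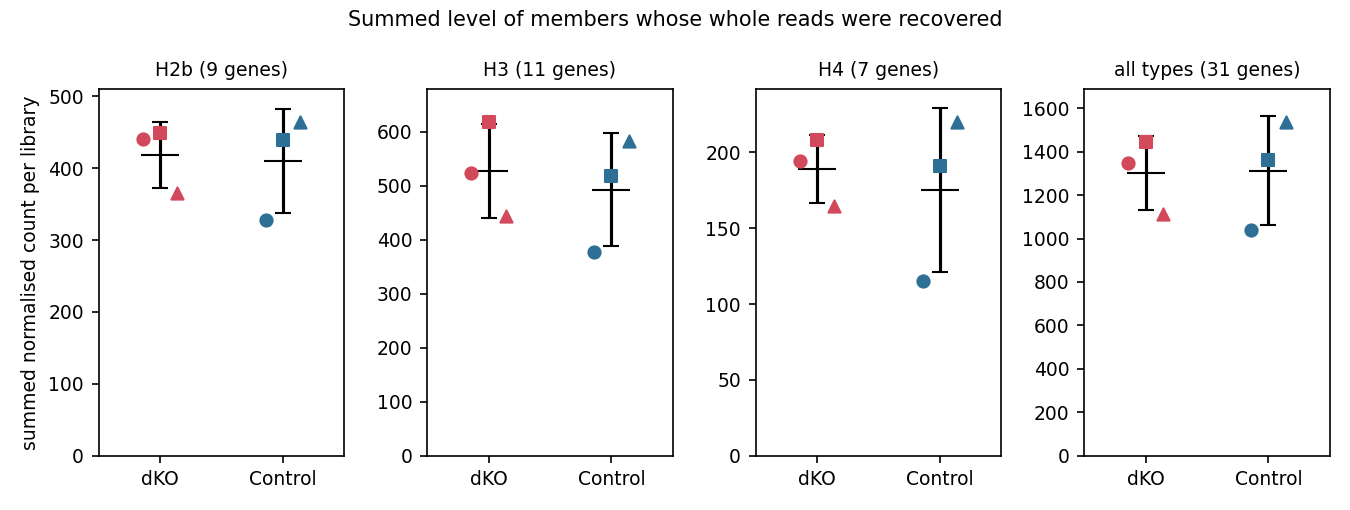
Summed normalised count per library of recovered H2b, H3, H4 and all 31 members, dKO left and Control right. Symbols mark libraries in order of falling size factor (circle, square, triangle), the dash is the mean and the bar 1 SD (n = 3). The Control circle, the library of size factor 1.02, is the lowest of its group in every panel, and the groups overlap.

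Members with a mean of 10 to 500 were called in 1 of 44 cases, against 28.5% of all tested genes in that range. The 1 called there was Hist1h3d, and the cut at 500 was not planned in advance. By cluster, Hist1 held all 11 calls. The 9 tested genes of Hist2, 3 of Hist3 and 1 of Hist4 had 0 called by the authors' test. None of these had an unadjusted p under 0.05. Over all tested genes of any mean, 29.0% were called.

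Among genes that make histone mRNA, 2 of 25 rose and 5 fell, with a median log2 change of -0.03 in the authors' deposited table, beside 15.1% higher and 13.8% lower over all tested genes. Slbp, the stem loop binding protein, had means of 10866 in dKO and 7902 in Control, 1.38-fold higher (adjusted p = 2.75e-05), and Ccne1, cyclin E1, 1626 and 834, 1.95-fold higher (adjusted p = 2.47e-08), in the authors' deposited table. Npat, the coactivator of histone genes, had 1728 in dKO and 1834 in Control in the authors' deposited table (adjusted p = 0.720). Cpsf3, a nuclease that cuts histone pre-mRNA, fell 1.25-fold, to 3512 in dKO against 4376 in Control (adjusted p = 0.0130 in the authors' deposited table). The largest fall of the list was that of Mblac1, 2.88-fold, to 43.65 in dKO against 125.6 in Control (adjusted p = 0.01825 in the authors' deposited table).

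Of 13 tested histone genes outside the clusters, 4 rose, 1 fell and 8 did not pass. Over all tested genes, 15.1% were called higher and 13.8% lower. H2afx, whose protein is phosphorylated at DNA breaks, had means of 11111 in dKO and 6713 in Control, 1.66-fold higher in the authors' deposited table (adjusted p = 2.59e-12). H1f0, a linker histone gene outside the clusters, had 8016 in dKO and 5192 in Control, 1.54-fold higher (adjusted p = 2.48e-05 in the authors' deposited table). H2afy, which encodes macroH2A1, fell 2.44-fold, to 9823 in dKO against 23997 in Control (adjusted p = 1.02e-39 in the authors' deposited table). H2afz (25346 in dKO, 25509 in Control), H3f3a (11280 and 13164) and H3f3b (31420 and 28619), which encode the replacement forms H2A.Z and H3.3, were among the 8 that missed the threshold in the authors' deposited table.

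Of 26 histone chaperone genes, 5 were called higher and 5 lower, beside 15.1% higher and 13.8% lower over all tested genes. Asf1b, a chaperone of H3 and H4, had means of 6506 in dKO and 2999 in Control, 2.17-fold higher (adjusted p = 1.45e-22), and Npm1, nucleophosmin, fell 1.44-fold, to 44187 in dKO against 63703 in Control, in the authors' deposited table. The 42 S phase genes had a median log2 change of -0.04: 6 were called higher, 3 lower and 33 neither, beside the same shares over all genes. Rrm2, a subunit of ribonucleotide reductase, had 13760 in dKO and 7693 in Control (1.79-fold higher), while Pcna, the sliding clamp, had 9220 in dKO and 7880 in Control in the authors' deposited table (adjusted p = 0.0620). Mki67, a marker of cycling cells, was 1.55-fold higher, with 27530 in dKO and 17723 in Control, in the authors' deposited table. The part of cycling cells in the H2a rise was not tested.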

How the data were processed

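RNA-seq of 3 dKO and 3 Control libraries was used as 1 series-level table. Build mm9 and the tools TopHat2 2.0.14, bcl2fastq 1.8.4 and DESeq 2 are named, without their roles, per the submitters' processing notes. Which gene counter was used, and how it treated reads matching several genes, is not given in the sources used here. Per the file headers, the signal columns hold group means of normalised counts made by the authors, the fold column their ratio, and the p-value columns the authors' test as deposited. The deposited log2 column was not used. Normalised counts summed to 23381590 in dKO and 22090871 in Control. The labels do not name separate animals, so the p-values cover variation among libraries that may be technical.

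Since the table holds group means, the authors' adjusted p under 0.05 was the call. Log2 changes were computed from the means, with a group at 0 set to 3 reads over the group (0.963 in dKO, 1.21 in Control). Whole reads per library were recovered as the only set of reads that, divided by the size factors, gives the mean, which was tested on simulated data. Size factors came from the smallest values in each column. Amplified reads are not independent molecules. Hist3h2bb-ps and Hist1h4m, at or under this floor in both groups, were given no fold, but they are in the medians and sums unless stated.

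Transcripts and gene order came from GENCODE M21 (GRCm38) and promoters from RefSeq (GRCm38.p6), matched by symbol or synonym; 67 and 61 members matched. These builds differ from mm9, so no position was joined to the table. The members, gene lists and tests were chosen with earlier results of these data known. Named members were those called with a mean of at least 10 and the 3 of highest mean among those that missed the threshold (Hist1h1e, Hist1h1c and Hist1h4d); others named were chosen after their values were seen. Alternatives were a threshold of 0.01, a 2-fold minimum, adjustment over genes with a mean of at least 10, 3 rescalings, a pseudocount of 1 and leaving out libraries. Python 3.11.15, numpy 2.4.6, pandas 2.3.3 and matplotlib 3.10.9 were used.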

Additional observations from a re-analysis of the deposited data

How the results depend on the processing

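Adjusting over genes with a mean of at least 10 changed no count by more than 1.5 times. With a change of at least 2-fold required, 1 member was called in place of 11 (0 higher and 1 lower, Hist1h3d, in all members and in the Hist1 cluster), 0 H2a genes higher and 0 H2b genes lower. With an adjusted p under 0.01, 1 member stayed lower, in all members and in Hist1, and 0 of H3. Of the pathway lists, tried after seeing the data, the 2-fold minimum left 0 higher and 1 lower for histone mRNA production, 0 higher for histones outside the clusters, 1 higher and 0 lower for chaperones and 1 higher and 0 lower for S phase genes. A threshold of 0.01 left 0 lower for histone mRNA production, 3 higher for chaperones and 1 lower for S phase genes. Without the most abundant member, the log2 ratio of the summed level was -0.06 for H2b (-0.37 with it) and 1.0 for Hist3 (0.22 with it). The 3 rescalings shifted all log2 changes alike, by -0.08 to -0.01. Leaving out 1 library at a time, the log2 ratio of the summed level of the 31 recovered members ran between -0.15 and 0.12 (-0.01 with all). No paired analysis was possible because the table holds group means and the recovered libraries carry no replicate number. For the same reason edgeR and DESeq2 were not run. Depth limits the low members, and the abundant H2a genes have no value per library.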

Other observations

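For several members of middle level more than 1 set of whole reads gave a group mean, and the values are listed here as such. In each case below the second set is more uneven between the libraries than the first. Hist1h2ak had 311, 415 and 325 or 658, 67.9 and 325 normalised counts in the dKO libraries, against 194, 267 and 248 or 439, 164 and 106 in the Control libraries. Hist4h4 had 119, 109 and 118 in dKO, against 98.6, 142 and 146 or 344, 38.9 and 3.64 in Control. Hist3h2a had 149, 159 and 144 in dKO, against 148, 164 and 165 or 393, 60.9 and 23.1 in Control. Hist1h4i had 259, 252 and 265 in dKO, against 213, 231 and 222 or 458, 128 and 80.2 in Control.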
